A study of Mus musculus with 7 samples.

Results

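The 56 genes described here encode the proteins that license, start and carry out DNA replication and that drive cells into S-phase. They were chosen by name: the subunits of the replication machinery from the origin recognition complex to the DNA ligase, the enzymes that make deoxynucleotides, regulators of the G1/S transition, and factors for new histones. All 56 were among the 38124 genes of the count table, and all 56 passed the filter on low counts, which left 16522 genes to test. Their mRNAs were compared between 3 libraries from control cells and 4 libraries labelled Sox9.

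The cells came from the neocortex of heterozygous *Tis21*-CreERT2 mouse embryos, in which exon 1 of *Tis21* is replaced by a tamoxifen-activated Cre recombinase. This Cre is active in apical radial glia that generate basal progenitors (BPs), and in their BP progeny. Embryos of both groups received tamoxifen and were electroporated *in utero* at E13.5 with a construct in which Cre excises a floxed GFP cassette so that nuclear RFP is made, either alone (control construct) or together with Sox9 (conditional Sox9 expression construct). Cells were dissociated at E15.5, 48 hr later, and those with the strongest RFP fluorescence (High RFP cells) were sorted for RNA-Seq. All 7 libraries thus carry the Cre allele, the tamoxifen treatment and an RFP construct, and differ by label in Sox9 alone. Each sort pooled cortices of several embryos, and RFP persists in the neurons born from the labelled progenitors. The p-values below measure the spread between these sorts.

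A cell replicates its genome once per cell cycle. In G1 the origin recognition complex, with Cdc6 and Cdt1, loads the ring-shaped MCM helicase onto DNA (licensing), and in S-phase kinases, Cdc45 and the GINS complex turn the loaded ring into an active helicase on which the DNA polymerases, the clamp PCNA and its loader assemble. Many of these genes are transcribed at the G1/S transition under E2F transcription factors, and cells that leave the cycle, as newborn cortical neurons do, switch most of them off. In the cortex their mRNAs are therefore found mainly in the cycling progenitors of the germinal zones.

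The libraries held 4429704 to 12907778 counts, and the deepest 3 were control 2, control 1 and Sox9-labelled 2. *Sox9* mRNA itself was 34.6, 89.2 and 67.9 CPM (the counts of a gene scaled to a common library size by the TMM method) in control replicates 1, 2 and 4, and 50.8, 41.1, 31.0 and 37.1 CPM in Sox9-labelled replicates 1 to 4. The groups overlapped, and the mRNA that the construct was meant to add showed no rise under that label (log2 fold change −0.68 ± 0.25 SE, adjusted p = 0.0493, edgeR quasi-likelihood test with Benjamini-Hochberg adjustment; exact permutation p = 0.2). The construct carries the *Sox9* coding sequence, and a count over the whole gene would take in its mRNA together with that of the cell's own gene. Why no rise was seen was not tested, and the groups are named by their labels. Of the markers of radial glia, the progenitors lining the ventricle, 4 of 8 were lower in the Sox9-labelled libraries, and so were 2 of 7 markers of intermediate progenitors, among them *Eomes*, which encodes Tbr2 (log2 fold change −2.25), where 3.43% of all genes tested were. DESeq2 called 6 and 2 of them lower, and limma after cyclic loess, a scaling that depends on level, 2 and 1. None of 12 neuronal markers was called lower or higher by edgeR, with 5 lower and 0 higher at an unadjusted p under 0.05, whereas DESeq2 called 2 of them lower. Their summed level was 14631 to 18185 CPM in the controls and 13376 to 15604 CPM in the Sox9-labelled libraries, against 551 to 1071 and 264 to 404 CPM for radial glia.

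E2F sites are a known element of promoters of this kind, and a stretch is therefore shown of the promoters of the MCM helicase genes, of *Cdc6*, and of the members with the smallest and the largest p in the table of promoters, *Rrm2* and *Pola1*. Sequences and coordinates are from RefSeq (GRCm38.p6), in the direction of transcription, and positions count from +1 at the annotated start. Capitals mark an E2F word (TTTCCCGC, TTTGGCGC, TTTCGCGC or TTTGCCGC, on either strand), or, in *Mcm2* and *Rrm2*, whose windows hold none, the word CCAAT on either strand.
*Mcm3* (chr1:20820266-20820295, minus strand, bases 18 to 47): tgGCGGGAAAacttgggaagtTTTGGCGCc
*Mcm5* (chr8:75109332-75109391, plus strand, bases -177 to -118): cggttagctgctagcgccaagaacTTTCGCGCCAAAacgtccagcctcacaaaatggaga
*Mcm6* (chr1:128359760-128359819, minus strand, bases -114 to -55): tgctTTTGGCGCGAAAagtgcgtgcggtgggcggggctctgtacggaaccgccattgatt
*Mcm7* (chr5:138172015-138172074, minus strand, bases -191 to -132): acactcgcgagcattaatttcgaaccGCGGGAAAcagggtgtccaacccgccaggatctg
*Cdc6* (chr11:98907987-98908046, plus strand, bases -164 to -105): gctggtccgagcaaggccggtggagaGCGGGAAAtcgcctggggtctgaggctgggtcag
*Pola1* (chrX:93632260-93632319, minus strand, bases -164 to -105): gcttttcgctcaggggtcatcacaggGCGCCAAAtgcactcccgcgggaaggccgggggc
*Mcm2* (chr6:88898924-88898983, minus strand, bases -203 to -144): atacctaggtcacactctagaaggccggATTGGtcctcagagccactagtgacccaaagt
*Rrm2* (chr12:24708176-24708235, plus strand, bases -78 to -19): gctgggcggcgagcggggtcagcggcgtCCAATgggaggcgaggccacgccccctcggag
The runs of 12 capitals in *Mcm5* and *Mcm6* are 2 overlapping E2F words on opposite strands. *Mcm4* was not among the promoters of the table.

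Of the 56 genes, 29 were lower in the Sox9-labelled libraries at an adjusted p under 0.01, where 3.43% of all genes tested were (edgeR quasi-likelihood test, Benjamini-Hochberg over all genes). None was called higher, where 11.3% of all genes tested were; at an unadjusted p under 0.05, 44 members were lower and 1 was higher, and DESeq2 called 34 lower and 0 higher. The log2 fold change was below 0 for 52 members, with a median of −0.76 against −0.0031 over all genes tested. In 41 members every Sox9-labelled library lay below every control (16.4% of all genes tested), and in 1, *Orc1*, every one lay above (22.9%). By cyclic loess with limma-trend, 19 members were lower and 0 higher. The plot of the members by role gives the size of each change.

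**Figure D1:**
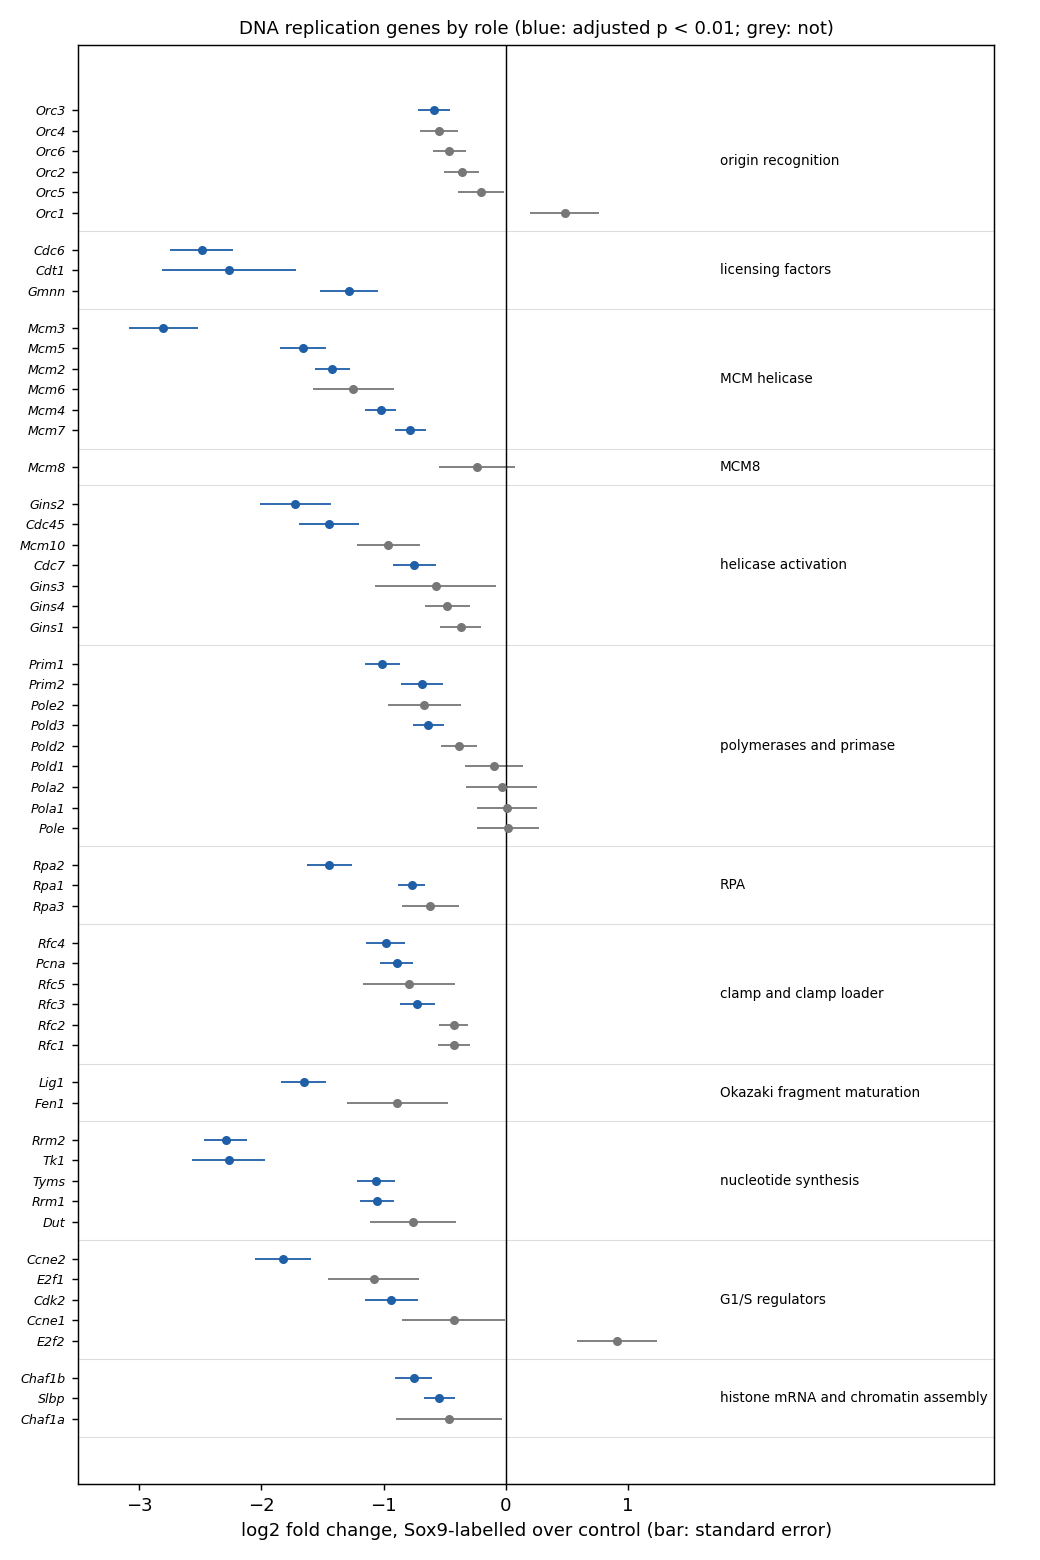
Log2 fold change of the 56 replication genes, Sox9-labelled over control, with its standard error, ordered by role; blue points passed an adjusted p of 0.01 and grey points did not. The points run from −2.80 (*Mcm3*) to 0.91 (*E2f2*), all 3 licensing factors are blue, and *Pola1*, *Pola2*, *Pole* and *Pold1* sit near 0.

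Because genes at low levels were mostly higher in the Sox9-labelled libraries and genes at high levels slightly lower, the members were also read within bands of mean level. Below a log2 CPM of 3, the median log2 fold change of all genes was 1.10 and that of the 9 members there was −0.57, with 1 called lower against 0.62% of all genes. From 3 to 5 the medians were −0.09 for all genes and −0.87 for 18 members, 7 of them lower against 4.27% of all genes. From 5 to 7 they were −0.22 and −0.72, with 17 of 25 members lower against 6.42% of all genes. All 4 members at a log2 CPM of 7 or more (*Mcm7*, *Rrm2*, *Rrm1* and *Rpa1*) were lower, against 8.22% of all genes in that band. In every band the members' median thus lay below that of all genes.

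**Figure D2:**
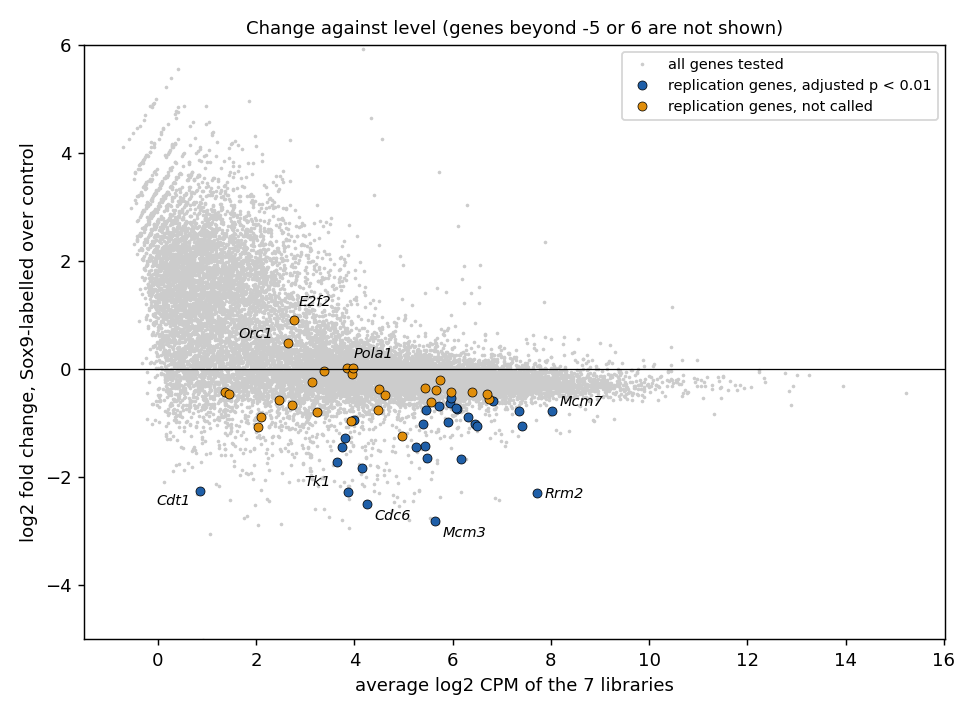
Log2 fold change, Sox9-labelled over control, against the average log2 CPM of the 7 libraries for all 16522 genes tested (light grey) and for the replication genes (blue, adjusted p under 0.01; orange, not called). Most replication genes lie along the lower edge of the cloud, with *Mcm3*, *Cdc6*, *Rrm2*, *Tk1* and *Cdt1* lowest, while *E2f2* and *Orc1* lie above 0.

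The members took 0.292% to 0.392% of all counts in the controls and 0.203% to 0.223% in the Sox9-labelled libraries. The controls were the more spread group: control 2 held the highest value of all 7 libraries in 38 members, and control 1 the lowest of the controls in 39. Relative to the mean of the controls, the members' median deviation was −0.19 and 0.18 on the log2 scale in controls 1 and 2, and ranged from −0.87 to −0.68 over the Sox9-labelled libraries. In bulk RNA, fewer cells that express these genes and less of their mRNA per cell cannot be told apart.

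In what follows, values in each library are CPM, given in the order control replicates 1, 2 and 4 and then Sox9-labelled replicates 1 to 4. Levels are compared between genes only as CPM per kilobase of exonic sequence.

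Of the 6 genes of the origin recognition complex (ORC), which marks the sites where replication can start, *Orc3* alone was called lower, and the median log2 fold change of the 6 was −0.41. *Orc3* was 119, 148 and 152 CPM in the controls and 107, 90.5, 85.5 and 89.1 CPM in the Sox9-labelled libraries (log2 fold change −0.59 ± 0.13 SE, adjusted p = 0.00446, edgeR). The groups did not overlap, but the lowest control and the highest Sox9-labelled library were close, and the call was kept in 2 of the 7 fits that left out a library. *Orc6*, with the highest level of the complex in the controls (49.8 CPM per exonic kb), was 120, 137 and 113 against 96.8, 90.4, 70.7 and 99.8 CPM (log2 fold change −0.46). *Orc5* was 68.0, 48.1 and 56.6 against 63.3, 40.7, 37.8 and 58.9 CPM, with wide overlap (log2 fold change −0.20 ± 0.19 SE). *Orc1*, the subunit whose level rises and falls with the cell cycle in many cells, ran against the complex, at 3.92, 6.34 and 4.58 against 7.97, 6.52, 6.71 and 6.50 CPM (log2 fold change 0.48, adjusted p = 0.205, edgeR). Its values were the lowest of the complex, below a log2 CPM of 3, where the median log2 fold change of all genes tested was 1.10. All subunits but *Orc3* share exonic sequence with another gene.

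The factors that load the helicase onto ORC fell further. *Cdc6*, the ATPase that joins ORC in G1, was 28.0, 50.4 and 26.7 CPM in the controls and 6.18, 7.28, 6.93 and 3.98 CPM in the Sox9-labelled libraries. It was 5.62-fold lower by the fit (log2 fold change −2.49 ± 0.26 SE, adjusted p = 4.95e-05, edgeR). Every Sox9-labelled value was far below the lowest control. *Gmnn*, which encodes geminin, the inhibitor that keeps Cdt1 from loading helicases outside G1, fell too, from 16.5, 25.5 and 19.5 to 11.3, 7.18, 6.60 and 9.02 CPM (log2 fold change −1.28, adjusted p = 0.0019, edgeR). *Cdt1*, which brings the helicase to ORC, was near the limit of detection, with 20, 20 and 46 counts in the controls and 5, 4, 8 and 1 counts in the Sox9-labelled libraries (log2 fold change −2.27 ± 0.55 SE, adjusted p = 0.0077, edgeR). Its standard error was the largest of the 56 members, and the call was kept in 2 of 7 fits without a library. The log2 ratio of *Cdt1* to *Gmnn* overlapped between the groups (difference −1.13, exact permutation p = 0.2).

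The 6 subunits of the MCM2-7 helicase form a ring in equal numbers, and all 6 mRNAs were lower in every Sox9-labelled library than in every control. *Mcm2* was 64.0, 71.6 and 66.2 against 24.3, 28.9, 25.3 and 21.6 CPM, a fall of 2.67-fold by the fit with little spread in either group. *Mcm3* was 55.5, 138 and 98.3 against 16.5, 18.05, 12.3 and 7.76 CPM, 6.98-fold lower, with a wider spread in the controls than any other subunit but *Mcm7*. *Mcm4* was 114, 135 and 124 against 62.1, 69.7, 58.0 and 53.5 CPM, 2.03-fold lower. *Mcm3* thus fell most, and in the plot of the subunits its controls also differ most among themselves relative to their mean.

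*Mcm5* was 85.5, 149 and 116 against 39.3, 46.0, 32.3 and 29.4 CPM, 3.16-fold lower. *Mcm7*, whose level was the highest of the complex in the controls at 77.6 CPM per exonic kb, was 293, 415 and 322 against 207, 205, 200 and 188 CPM, 1.72-fold lower; it shares exonic sequence with *Ap4m1*, *Cops6* and microRNA genes. *Mcm6* was 50.9, 59.9 and 28.5 against 6.87, 21.8, 27.3 and 22.0 CPM and was the subunit that missed the threshold (log2 fold change −1.25 ± 0.33 SE, adjusted p = 0.0121, edgeR). In *Mcm6*, control 4 stood close to the Sox9-labelled libraries and Sox9-labelled replicate 1 well below the other 3. The adjusted p of the 5 called subunits ran from 3.99e-05 for *Mcm2* and *Mcm3* to 0.000766 for *Mcm7* (edgeR).

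**Figure D3:**
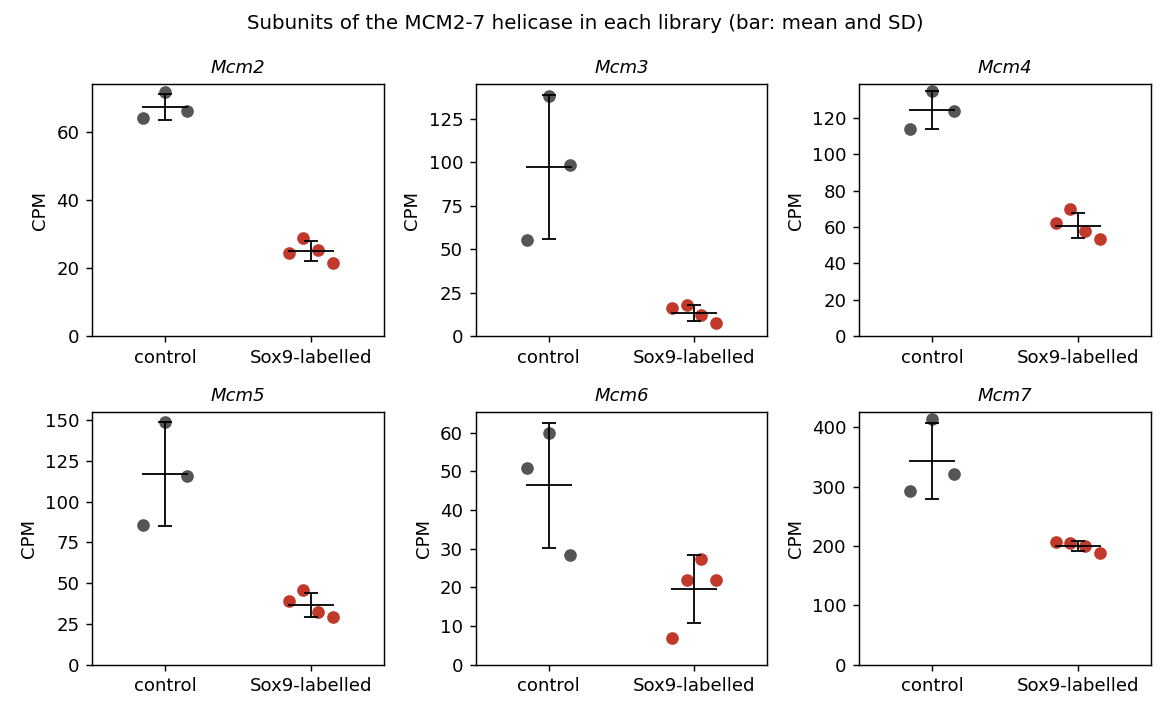
CPM of each subunit of the MCM2-7 helicase in the 3 control (grey) and 4 Sox9-labelled (red) libraries, with the mean and SD of each group. All Sox9-labelled points lie below all control points in each panel; the means differ most in fold for *Mcm3* (97.3 ± 41.2 against 13.6 ± 4.62 CPM, SD), and the gap is narrowest for *Mcm6*, where control 4 at 28.5 CPM lies next to 27.3 CPM.

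The ratios between the subunits' mRNAs were compared as well. Of the 15 pairs among the 6 subunits, the log2 ratio of CPM did not overlap between the groups in 8, and in each of these the exact permutation p was 0.0286, the smallest that 3 against 4 libraries allow. Adjusted over the 15 pairs these became 0.0536, so no pair passed 0.05. The difference was largest for *Mcm3* over *Mcm7*, whose log2 ratio was −1.90 ± 0.44 (SD, n = 3) in the controls and −3.94 ± 0.49 (SD, n = 4) in the Sox9-labelled libraries. *Mcm8*, a paralogue outside the ring with a role in recombination, was 10.04, 13.2 and 4.68 against 7.97, 6.71, 7.83 and 9.44 CPM, with overlap (log2 fold change −0.24 ± 0.31 SE, adjusted p = 0.594, edgeR).

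Among the 7 genes that turn the loaded ring into a working helicase, *Gins2*, *Cdc45* and *Cdc7* were called lower and all 7 log2 fold changes were below 0. *Gins2*, a subunit of the GINS complex, was 14.1, 28.2 and 18.2 against 4.67, 7.94, 4.36 and 7.55 CPM (log2 fold change −1.72 ± 0.29 SE, adjusted p = 0.00101, edgeR). *Cdc45*, the other partner of the active helicase, fell by 1.45 on the log2 scale, and *Cdc7*, the kinase that fires origins, by 0.75. The other GINS subunits differed from *Gins2* in size: *Gins4* was 26.9, 34.3 and 26.4 against 21.2, 23.8, 15.9 and 23.3 CPM (log2 fold change −0.48, adjusted p = 0.0618, edgeR). *Gins3* was 5.35, 7.13 and 6.82 against 3.71, 4.06, 8.38 and 0.419 CPM, and Sox9-labelled replicates 3 and 4 lay on opposite sides of all controls. *Mcm10*, a factor of helicase activation, had a log2 fold change of −0.96 with an adjusted p of 0.0127 (edgeR), and *Gins1* one of −0.37.

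The 9 polymerase and primase genes split. *Prim1*, the catalytic subunit of primase, which lays down the RNA primers, was 51.2, 63.3 and 62.7 against 27.3, 31.3, 28.6 and 29.99 CPM (log2 fold change −1.01 ± 0.14 SE, adjusted p = 0.000323, edgeR). *Prim2*, the other primase subunit, and *Pold3*, an accessory subunit of polymerase delta, fell by 0.68 and 0.64 on the log2 scale. The large catalytic subunits did not pass the test. *Pola1*, of polymerase alpha, was 11.8, 18.5 and 11.8 against 16.5, 9.92, 16.3 and 14.1 CPM, with full overlap and the largest p of all members (log2 fold change 0.01 ± 0.24 SE). *Pole*, of polymerase epsilon, had a log2 fold change of 0.02 ± 0.25 SE, and *Pold1*, of polymerase delta, one of −0.10 ± 0.24 SE. *Pola2*, the partner of *Pola1*, had one of −0.03 ± 0.29 SE; these 4 values changed sign with the scaling or the libraries used. The 4 genes had low levels, 1.24 to 3.27 CPM per exonic kb in the controls, against 30.6 for *Pold2*, which was 52.7, 59.7 and 61.9 against 38.0, 47.3, 40.4 and 53.1 CPM (log2 fold change −0.38, adjusted p = 0.0601, edgeR).

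Replication protein A (RPA), a trimer, coats the unwound strands. *Rpa2* was 45.4, 67.9 and 64.2 against 24.998, 23.0, 16.1 and 23.1 CPM (log2 fold change −1.44 ± 0.19 SE, adjusted p = 0.000204, edgeR), and *Rpa1* fell by 0.77 on the log2 scale. *Rpa3*, the smallest subunit, with the highest level of the trimer (51.7 CPM per exonic kb in the controls), was not called: its values were 57.9, 56.4 and 61.7 against 53.6, 30.7, 22.4 and 47.6 CPM (adjusted p = 0.0519, edgeR). No library overlapped, but Sox9-labelled replicates 1 and 4 came close to the controls.

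*Pcna*, the sliding clamp that holds polymerases on DNA and a common marker of cycling cells, was 94.2, 123 and 104 against 61.5, 53.0, 51.3 and 65.8 CPM (log2 fold change −0.89 ± 0.14 SE, adjusted p = 0.000587, edgeR). Of the 5 subunits of its loader, replication factor C, *Rfc3* and *Rfc4* were called lower. *Rfc4*, which shares exonic sequence with *Eif4a2*, was 68.1, 92.6 and 87.0 against 46.7, 37.2, 34.9 and 49.1 CPM (log2 fold change −0.98). *Rfc1* and *Rfc2* had log2 fold changes of −0.42 and −0.43 without overlap, with adjusted p of 0.0233 and 0.0154 (edgeR). *Rfc5* was 19.0, 12.1 and 4.98 against 3.85, 8.41, 7.15 and 8.39 CPM, so that control 4 lay among the Sox9-labelled libraries.

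The lagging strand is finished by the flap nuclease FEN1 and by DNA ligase 1. *Lig1* was 52.3, 85.7 and 79.4 against 25.7, 26.6, 19.9 and 19.5 CPM, 3.15-fold lower (log2 fold change −1.65 ± 0.19 SE, adjusted p = 7.7e-05, edgeR). *Fen1* was low throughout, at 3.73, 7.30 and 5.29 against 1.51, 3.59, 1.90 and 5.03 CPM with overlap, and did not pass the test (log2 fold change −0.89 ± 0.41 SE, adjusted p = 0.112, edgeR).

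The genes of deoxynucleotide synthesis held the member with the smallest p. *Rrm2*, the small subunit of ribonucleotide reductase that limits the enzyme's activity to S-phase, was 274, 491 and 396 against 74.0, 96.5, 73.1 and 71.3 CPM, 4.9-fold lower (log2 fold change −2.29 ± 0.17 SE, adjusted p = 7.64e-06, edgeR). Per exonic kb it was also the highest of all 56 members in the controls, at 140 CPM against 28.4 CPM in the Sox9-labelled libraries. The large subunit *Rrm1* fell by 1.05, the thymidylate synthase gene *Tyms* by 1.06 and the thymidine kinase gene *Tk1* by 2.27 on the log2 scale. *Dut*, which encodes the dUTPase that keeps uracil out of DNA, was 41.5, 29.0 and 15.7 against 6.73, 17.9, 18.4 and 25.6 CPM. Both groups of *Dut* were widely spread and overlapped (log2 fold change −0.76 ± 0.35 SE, adjusted p = 0.111, edgeR).

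Some of these enzymes have counterparts that supply nucleotides outside S-phase, which allows a comparison within each library. *Rrm2b*, the small subunit used in resting cells, was 14.1, 10.3 and 8.54 against 11.1, 6.24, 6.93 and 9.44 CPM (log2 fold change −0.40 ± 0.27 SE). *Tk2*, the mitochondrial thymidine kinase, was 20.5, 19.3 and 11.1 against 12.1, 14.2, 16.5 and 19.5 CPM (log2 fold change −0.13 ± 0.24 SE). Both overlapped between the groups. The log2 ratio of *Rrm2* to *Rrm2b* was lower by 1.88 in the Sox9-labelled libraries, a change from 5.13 ± 0.74 (SD, n = 3) to 3.25 ± 0.54 (SD, n = 4), and that of *Tk1* to *Tk2* changed from 0.57 ± 1.00 to −1.54 ± 0.39. The ratio of *Rrm2* to *Rrm1*, the subunits of the same enzyme, also differed, by −1.23. Each of these 3 ratios had no overlap (exact permutation p = 0.0286, adjusted over a family of 6 pairs of related genes p = 0.0429).

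**Figure D4:**
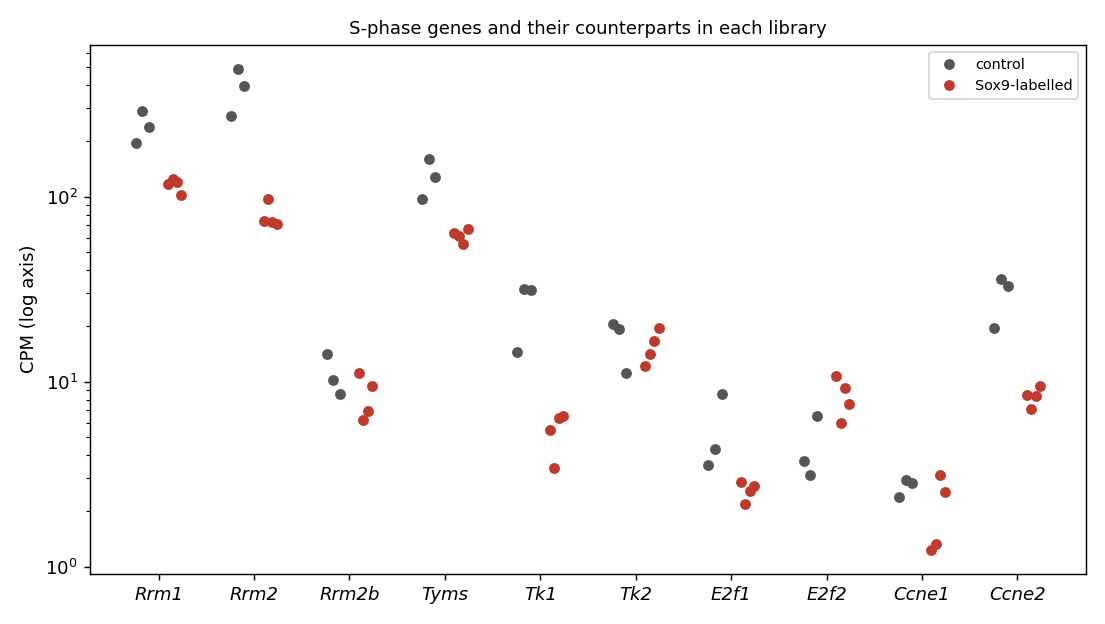
CPM on a log axis of genes of deoxynucleotide synthesis and of G1/S regulators in the 3 control (grey) and 4 Sox9-labelled (red) libraries. *Rrm2*, *Tk1* and *Ccne2* are lower in all Sox9-labelled libraries, whereas the groups overlap for *Rrm2b*, *Tk2*, *E2f2* and *Ccne1*.

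Cyclin E, a regulator of the G1/S transition, is encoded by a pair of genes. *Ccne2*, which encodes cyclin E2, was 19.4, 35.9 and 32.9 against 8.52, 7.09, 8.38 and 9.44 CPM, 3.54-fold lower (log2 fold change −1.82 ± 0.23 SE, adjusted p = 0.000178, edgeR). *Ccne1*, for cyclin E1, was 2.39, 2.95 and 2.85 against 1.24, 1.32, 3.13 and 2.52 CPM with overlap (log2 fold change −0.43 ± 0.42 SE). The log2 ratio of *Ccne2* to *Ccne1* differed by −1.25, which did not pass the test (exact permutation p = 0.0571, adjusted over the same 6 pairs p = 0.0686). *Cdk2*, the kinase that cyclin E activates, fell by 0.94.

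The E2F factors *E2f1* and *E2f2*, both activators of S-phase genes, pointed in opposite directions, although neither passed the threshold. *E2f1* was 3.54, 4.34 and 8.54 against 2.88, 2.173, 2.57 and 2.73 CPM (log2 fold change −1.08 ± 0.37 SE, adjusted p = 0.0371, edgeR). *E2f2* was 3.73, 3.13 and 6.51 against 10.7, 5.95, 9.28 and 7.55 CPM (log2 fold change 0.91 ± 0.33 SE, adjusted p = 0.0446, edgeR). Control 4 was the highest control for both genes, and within each library the log2 ratio of *E2f1* to *E2f2* was 0.26 ± 0.30 (SD, n = 3) in the controls and −1.67 ± 0.24 (SD, n = 4) in the Sox9-labelled libraries, without overlap (exact permutation p = 0.0286, adjusted over the same 6 pairs p = 0.0429). Both genes were at low levels, below a log2 CPM of 3, where the median log2 fold change of all genes tested was 1.10.

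Of the genes that supply new chromatin with histones, *Chaf1b* and *Slbp* were called lower. *Chaf1b*, a subunit of the assembly factor CAF-1, was 51.7, 62.9 and 56.1 against 28.2, 39.6, 35.3 and 31.5 CPM (log2 fold change −0.75 ± 0.15 SE, adjusted p = 0.00299, edgeR). *Slbp*, which encodes the protein that binds the stem-loop of histone mRNAs, was 70.8, 84.3 and 71.5 against 52.2, 52.4, 47.7 and 55.2 CPM (log2 fold change −0.54 ± 0.13 SE, adjusted p = 0.00647, edgeR); its call was kept in 0 of the 7 fits without a library, although its groups did not overlap. *Chaf1a*, the large subunit of CAF-1, was 2.96, 2.78 and 3.05 against 3.02, 3.02, 1.01 and 1.26 CPM with overlap.

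Of the 29 calls, 10 were lost in at least 1 of the 7 fits that left out a library. *Gmnn* was lost without control 2 (adjusted p = 0.0111). *Pold3* was lost without control 2 (0.0241) or control 4 (0.0102), and *Rfc3* without the same libraries (0.0144 and 0.014). *Chaf1b* was lost without control 2 or 4 or Sox9-labelled replicate 1 or 4, with an adjusted p up to 0.0198, and *Cdc7* without control 2 or Sox9-labelled replicate 2, 3 or 4, up to 0.0397. *Orc3* and *Cdt1* kept the call in 2 fits, with an adjusted p of up to 0.025 and 0.0547, *Cdk2* and *Prim2* in 1 (up to 0.0375 and 0.0628) and *Slbp* in 0 (0.0109 to 0.0459). All 10 stayed below 0 in each of these fits. These adjusted p are from edgeR.

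Other genes of S-phase were called lower in a smaller share than the members, though above that of all genes. Of 69 further genes, 12 were called lower and 0 higher by edgeR, against 3.43% and 11.3% of all genes tested, and their median log2 fold change was −0.37. At an unadjusted p under 0.05, 31 were lower and 1 higher, DESeq2 called 20 lower and 0 higher, and limma after cyclic loess 8 and 0. Among 26 firing and fork factors 4 were lower, led by *Top2a*, the topoisomerase that untangles replicated DNA, at 154, 296 and 196 against 38.6, 43.5, 36.8 and 45.5 CPM (log2 fold change −2.39 ± 0.18 SE). The others, named after their values were seen, were *Tipin* and *Rtel1*, which act at the fork, and *Recql4*, a helicase of origin firing. Of 10 genes that maintain chromatin at the fork 5 were lower (*Dtl*, *Asf1b*, *Hells*, *Uhrf1* and *Nasp*), the first of them at 22.6, 42.1 and 31.0 against 5.63, 8.88, 7.27 and 6.50 CPM. *Dtl* encodes the adaptor of the ligase that degrades Cdt1 in S-phase.

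Among further genes of nucleotide supply the smallest p was that of *Umps*, an enzyme of pyrimidine synthesis, which was lower at 121, 160 and 126 against 80.9, 93.8, 82.8 and 70.04 CPM (log2 fold change −0.72 ± 0.14 SE). None of 10 genes of the replication checkpoint was called by edgeR, with 3 lower and 0 higher at an unadjusted p under 0.05 and 1 lower by DESeq2. The smallest p there was that of the kinase gene *Chek1*, at 12.4, 18.2 and 10.8 against 9.07, 8.79, 7.15 and 4.19 CPM (log2 fold change −0.90 ± 0.28 SE, adjusted p = 0.0247, edgeR). Of the E2F, DP and RB families besides *E2f1* and *E2f2*, 1 of 11 was lower: *E2f8*, a repressor made late in S-phase, at 5.26, 9.30 and 6.31 against 2.88, 3.50, 2.79 and 2.31 CPM (log2 fold change −1.26 ± 0.32 SE, adjusted p = 0.00968, edgeR). Of the 7 fits that left out a library, the one without control 1 kept this call. The other 10 had log2 fold changes from −0.56 (*Tfdp2*) to 0.34 (*Rbl2*).

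Genes of mitosis, which cycling cells express after S-phase, were lower in larger number: 36 of 41 were called lower and 1 higher (*Mybl2*, named after its values were seen), against 3.43% and 11.3% of all genes tested, and the list's median log2 fold change was −1.83 against −0.76 for the replication genes. DESeq2 called 37 of them lower and limma after cyclic loess 34. *Mki67*, a proliferation marker among them, was 19.4, 43.3 and 33.9 against 10.9, 11.1, 9.39 and 11.3 CPM. Control 1 was the lowest control for *Mki67* and *Sox9* as well as for most replication genes.

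Markers of other cell types were read against the 11.3% of all genes that were higher, or 21.8% below a log2 CPM of 3. Of 5 markers of oligodendrocyte precursors tested, 4 were higher, and the summed level of the list was 0.814 to 1.56 CPM in the controls and 9.73 to 27.7 CPM in the Sox9-labelled libraries; *Olig2* was at 0 in controls 1 and 4, *Olig1* in control 4, *Gpr17* in control 1 and *Sox10* in Sox9-labelled replicate 3. Of 9 endothelial and mural markers 3 were higher (9.84 to 19.3 against 27.6 to 54.9 CPM), of 8 microglial markers 1 (10.9 to 40.1 against 17.6 to 67.3 CPM) and of 6 erythroid markers 1 (2.10 to 24.7 against 14.6 to 94.8 CPM). The microglial and erythroid counts were thus near the share of all genes, and their summed levels overlapped between the groups. Of 6 astrocyte markers 3 were lower and 2 higher (218 to 402 against 82.8 to 111 CPM). The largest part of that sum was *Aldoc*, a marker called lower, with means of 230 CPM in the controls and 42.6 CPM in the Sox9-labelled libraries. By limma after cyclic loess, 1 of the oligodendrocyte precursor markers and none of the endothelial and mural, microglial, erythroid or astrocyte markers was higher, and 2 astrocyte markers were lower. DESeq2 called 5 of the oligodendrocyte precursor markers, 4 endothelial and mural, 1 microglial, 0 erythroid and 2 astrocyte markers higher, against 5, 6, 2, 5 and 2 at an unadjusted p under 0.05 (edgeR). *Cldn5* was at 0 in Sox9-labelled replicates 1, 2 and 4, and *Tek* and *Pdgfrb* in replicate 4, while *Gfap* was at 0 in control 2 and *Hbb-y* in control 1. None of 3 interneuron markers was called by edgeR or by DESeq2, with 0 lower and 1 higher at an unadjusted p under 0.05 (4.26 to 4.78 against 7.94 to 12.8 CPM). The part of these cell types in the values of the replication genes was not tested.

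The promoters of the members shared the E2F word far more often than other promoters did, whether or not the gene was called lower. A promoter was in the table for 47 of the 56 genes, 57 promoters in all, each from 250 bases before to 50 after the start. An E2F word stood in 18 of the 57 (31.6%), against 2.26% of all 32851 promoters. It stood in 10 of 28 promoters of genes called lower (35.7%) and in 8 of 29 promoters of genes not called (27.6%), the latter being *Mcm6*, *Pole2*, *Gins3*, *Mcm8*, *Pold1*, *Pola1*, *Orc1* and *E2f2*, with log2 fold changes from −1.25 to 0.91. The sequences printed above show both sides: *Pola1*, with a log2 fold change of 0.01, holds the word, and *Rrm2* and *Mcm2*, which fell, have no such word in this window.

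**Figure D5:**
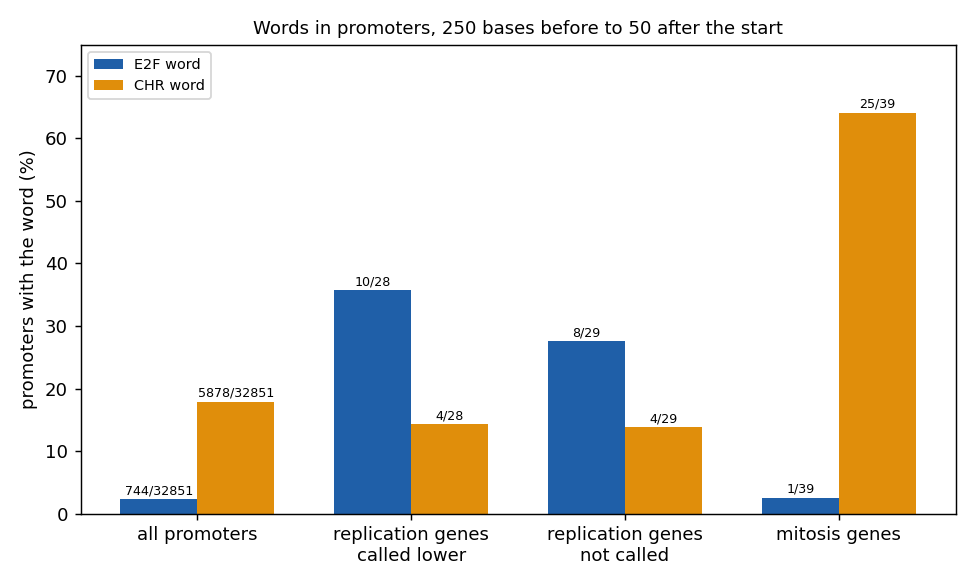
Share of promoters that hold an E2F word (blue) or a CHR word (orange) on either strand, with the number of promoters above each bar, for all promoters, for replication genes called lower or not called, and for mitosis genes. The E2F word is most frequent in both groups of replication genes (35.7% and 27.6%), and the CHR word in mitosis genes (64.1%).

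The word TTTGAA of the cell cycle genes homology region (CHR), an element of genes expressed in G2 and mitosis, showed the reverse order. It stood in 14% of the members' promoters, 64.1% of those of mitosis genes and 17.9% of all, while the E2F word was in 2.56% of the promoters of mitosis genes. The word CCAAT was in 54.4% of the members' promoters, 76.9% of those of mitosis genes and 37.4% of all. These matches describe the letters in the window and are not evidence of binding.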

How the data were processed

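RNA-Seq was performed on sorted High RFP cells in 7 libraries (3 control, 4 Sox9-labelled). cDNA was primed with poly-dT and amplified by PCR, with no molecular identifiers. The authors trimmed reads with cutadapt, aligned them to mm10 (GRCm38) with STAR 2.5.2b (bcl2fastq 2.17.1.14 is also named in the submitters' processing notes), and used Ensembl gene models. The authors deposited raw counts per gene. The counting program and its use of strand are not given in the sources used here, so reads of overlapping genes cannot be told apart (21 members share exonic bases with another gene). The deposited FPKM values were not used.

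Counts were tested with edgeR 4.0.16 (R 4.3.3, limma 3.58.1): TMM scaling, filterByExpr, and a two-sided quasi-likelihood test without covariates, with Benjamini-Hochberg adjustment over all 16522 genes tested and a threshold of 0.01. The script was tested on simulated data. Values printed per library are CPM scaled to TMM library sizes. Ratios within libraries were compared by exact two-sided permutation over all 35 splits. Symbols, coordinates and exonic lengths came from GENCODE annotation of GRCm38, and promoters from RefSeq, from 250 bases before to 50 after each start. Summaries and permutation tests were computed in Python 3.11.15.

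Values in every library are given for the MCM subunits and, in each role, for the genes with the smallest p, the largest p and the highest level per exonic kilobase, and for the smallest p in each list of further S-phase genes. They are also given for *E2f1*, *E2f2*, the counterparts *Rrm2b* and *Tk2*, *Sox9* and *Mki67*. The members and lists were chosen with earlier results of these data known. Alternatives were DESeq2 1.42.0, its size factors, upper quartile scaling, limma-trend after cyclic loess, 2 other filters (none, and 10 counts or more in each library), an adjusted p under 0.05, glmTreat against 1.5-fold, a replicate block, leaving out each library, and thinning to equal depth, chosen after seeing the data. The values of 1 gene of the further lists are not reported here.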

Additional observations from a re-analysis of the deposited data

Results flagged for a closer look

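In 76 sets of 4 Sox9-labelled values, 5 held a value that stood apart from the other 3 by Dixon's test at the 95% level, which chance does in about 1 of 20 sets. *Orc1* was 7.97 CPM in Sox9-labelled replicate 1, above 6.71 CPM in the next library. *Rrm2* was 96.5 CPM in replicate 2, above 74.0 CPM. *Rb1*, the retinoblastoma gene, was 19.3 CPM in replicate 4, above 13.05 CPM. *Rfc3* was 44.9 CPM in replicate 3, below 53.8 CPM. *Rfc1* was 51.0 CPM in replicate 2, below 55.4 CPM. Each of these 5 values lay outside the range of the controls.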

How the results depend on the processing

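Of the 29 members called lower, 12 were so under all 18 alternatives and 19 in all 7 fits that left out a library. The count of members lower was 20 to 28 without a library, 19 with cyclic loess, 13 with glmTreat and 17 with the replicate block by titles, against 24 with the block by descriptions. Deviations of same-numbered libraries correlated by more than 0.1 in 1 of 3 pairs, too few pairs to settle whether the numbers pair the samples. Titles and descriptions also number the controls differently. At an adjusted p under 0.05, 1 member was higher (*E2f2*). The median log2 fold change was −0.60 after thinning to equal depth and −0.56 with upper quartile scaling, which moved the median of all genes to 0.20. Further S-phase genes lower numbered 12 in the report, 20 with DESeq2, 20 with no filter, 26 at an adjusted p under 0.05, 4 with glmTreat and 6 to 12 without a library (6 without control 2). *Sox9* passed the threshold with no filter (−0.78), at an adjusted p under 0.05 (−0.68) and without control 1 (−0.99; range without a library −0.99 to −0.37).

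The share of higher calls among all calls, 76.7% in the report, was 65.6% with DESeq2's size factors, 59.8% with DESeq2, 56.1% with cyclic loess, 91.0% with upper quartile scaling and 64.7% with no filter. Lower and higher calls numbered 567 and 1862 in the report, 951 and 1817 with DESeq2's size factors, and 1391 and 2066 with DESeq2. They numbered 284 and 363 with cyclic loess, 239 and 2429 with upper quartile scaling, and 1452 and 2661 with no filter.

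Genes near 0 changed sign, none of them called (log2 fold changes). *Pola1* was −0.081 with DESeq2's size factors, −0.081 with DESeq2, −0.085 with no filter, −0.062 with the block by titles, and −0.12 to 0.27 without a library. *Pole* was −0.071 with DESeq2's size factors, −0.071 with DESeq2, −0.078 with no filter, −0.077 with equal depth, and −0.24 to 0.31 without a library. *Pola2* was 0.11 with at least 10 counts, 0.15 with equal depth, 0.17 with upper quartile scaling, and −0.28 to 0.17 without a library. *Pold1* was 0.047 with at least 10 counts, 0.051 with the block by descriptions, 0.11 with upper quartile scaling, and −0.24 to 0.12 without a library. *Tk2* was 0.011 with at least 10 counts, 0.00034 with cyclic loess, 0.072 with upper quartile scaling, and −0.34 to 0.0063 without a library. *E2f5* was 0.11 with at least 10 counts, 0.0044 with equal depth, 0.17 with upper quartile scaling, and −0.12 to 0.12 without a library. *E2f3* was −0.076 with cyclic loess, and −0.12 to 0.47 without a library. *Rb1* was −0.053 with the block by descriptions, and −0.0011 to 0.24 without a library. *Rbl1* was 0.11 with equal depth, 0.061 with upper quartile scaling, and −0.41 to 0.035 without a library. *Mcm8* was −0.54 to 0.12 without a library. The cause was not tested.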
